A study of Dunaliella salina with 9 samples.

Results

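The 100 most abundant transcript clusters of Dunaliella salina were described across cells grown under blue, red and white light. A transcript cluster is a set of assembled RNA sequences that were counted together, and it can stand for a gene, an isoform or an allele. The members were chosen by their mean level over all 9 libraries, in CPM (the count of a cluster scaled to the total of its library). They are 100 of the 115975 clusters in the files and 100 of the 38376 clusters with enough counts to be tested. The mean over all lights favours clusters that are high in 1 light. For 22 members the mean over the other two lights was below the lowest mean of the list when blue was left out, for 6 when red was and for 16 when white was. Differences of these members from the light that brought them in are given as a description, with no p-value. Members are called here by their rank, with rank 1 for the highest mean.

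Dunaliella salina is a unicellular green alga without a rigid cell wall that lives in salt lakes and can accumulate β-carotene. RNA was sequenced from 3 samples under blue light of 450 nm, 3 under red light of 660 nm and 3 under cool white light. All received 50 µmol photons per square metre per second, and all were labelled as mid-exponential. Before the experiment the cells grew at 22 °C under white lamps, and they were moved into fresh medium for the light treatment. The treatment time is not stated in the labels, nor is whether the samples were separate cultures. If samples of a light shared a culture, the p-values measure only the spread between those samples.

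In green algae the most abundant messenger RNAs usually include those for light-harvesting proteins, enzymes of carbon fixation, ribosomal proteins and translation factors. Blue light is sensed in these cells by phototropins and cryptochromes, and both blue and red light are absorbed by chlorophyll for photosynthesis. None of the cluster identifiers matched the 16683 genes of the reference table, so no member could be given a gene name, a position or a sequence. For the same reason the cells could not be checked against marker genes of the species. Identifiers are printed for 4 members only, 2 that rose and 2 that fell.

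Total counts were 17905778 to 19921151 in the blue libraries, 17674678 to 24526786 in the red ones and 16279167 to 19888088 in the white ones. As RNA came from whole cultures, fewer cells of a kind and less RNA per cell cannot be told apart. The members rest on large counts: 98 of 100 had at least 1000 counts in every library, and the median of their lowest counts was 20275. The white libraries differed more from each other than the blue or red ones did. Over the members, the median coefficient of variation between the 3 libraries of a light was 3.78% in blue, 4.16% in red and 14.4% in white. For the next 100 clusters it was 4.51%, 4.48% and 17.3% in the same lights.

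The members held a smaller share of the counts under blue and red light than under white light. Their share was 21.4%, 22.4% and 23.1% in the blue libraries, 24.5%, 24.3% and 25.5% in the red ones and 24.9%, 32.0% and 30.7% in the white ones. The means were 22.3% ± 0.84 in blue, 24.8% ± 0.62 in red and 29.2% ± 3.8 in white (SD, n = 3 each). White 1 lay within the range of the red libraries, and every blue library lay below all others. These shares are a description and were not tested, since the same counts chose the members. Fewer clusters had counts in white 1 to 3 (65766, 52214 and 55995) than in blue (72090 to 77711) or red (76605 to 83386). What part this had in the shares was not tested.

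**Figure D1:**
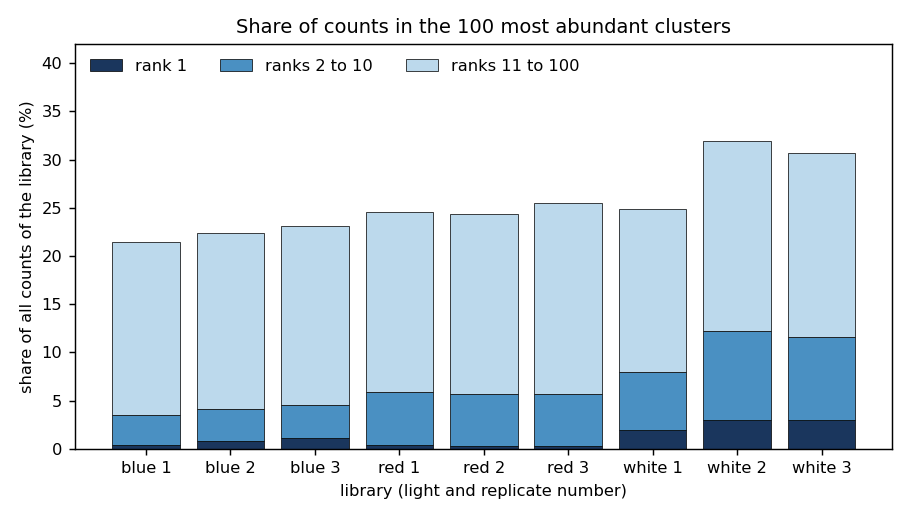
Share of all counts of a library (y axis, %) held by the clusters of rank 1, ranks 2 to 10 and ranks 11 to 100, for each of the 9 libraries (x axis). The segment of ranks 11 to 100 stays between 17.0% and 19.8%, and the segments of the first 10 ranks are larger in white 2 and white 3 than elsewhere.

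The difference from white lay in the first 10 ranks. Ranks 1 to 10 held 4.06% ± 0.52 in blue, 5.74% ± 0.16 in red and 10.6% ± 2.3 in white. Ranks 11 to 100 held 18.3% ± 0.33 in blue, 19.0% ± 0.69 in red and 18.6% ± 1.4 in white, and the white libraries overlapped both the blue and the red ones. The 100 clusters highest in each library by itself gave 24.1% ± 0.46 in blue, 26.0% ± 0.68 in red and 31.8% ± 3.8 in white, so the order of the lights was the same for lists made library by library. A list chosen by median CPM held 22.4% in blue, 25.6% in red and 26.1% in white, which brings red and white closer.

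A set of 9 members held much of this gap. They have ranks 1, 5, 9, 15, 22, 29, 40, 82 and 95, and each had a mean in white more than 2 times its mean in blue and in red. This set was defined after the values were seen, so it is only described. It held 0.817%, 1.52% and 2.23% of the counts in the blue libraries, 0.695%, 0.636% and 0.556% in the red ones and 5.34%, 11.1% and 10.2% in the white ones. The other 91 members held 20.8% ± 0.16 in blue, 24.2% ± 0.68 in red and 20.3% ± 0.67 in white. Without the 9, it was thus red that had the highest share, and the blue and white libraries overlapped.

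Membership varied with the light. Of the members, 77 were among the 100 highest clusters of blue, 86 among those of red and 72 among those of white. The lists made for each light by itself shared 73 clusters between blue and red, 50 between blue and white, 64 between red and white and 45 between all 3. By single libraries, 31 members were among the 100 highest in all 9 libraries, and 31 were so in 6 of them. In unscaled CPM, the member means were highest in blue for 48 members, in red for 27 and in white for 25.

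Most members stayed within the first 200 places of every library, and a few moved far. Moves within that bound could be wide, as for rank 12, which ran from place 5 to place 89. The lowest rank that a member took in any library had a median of 132.5, and 78 members never fell below rank 200. Only 4 members left the first 1000 clusters in a library, those of ranks 9, 29, 82 and 98. Rank 9 reached place 3 at its highest and place 11206 at its lowest. Rank 98 went as high as place 9 and as low as place 13299.

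The limit at 100 was not a gap in the levels. Ranks 96 to 100 had means of 1434 to 1446 CPM, and the next 5 clusters had means of 1374 to 1409 CPM. Leaving out any 1 library from the mean kept 95 to 99 of the 100 members.

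A rank by CPM orders shares of reads and not numbers of RNA molecules, because long transcripts give more reads. Per length, the deposited FPKM values (counts scaled by length and by library total) placed 58 of the members among the 100 highest, and the lowest of them at place 423. The effective length derived from counts and FPKM ran from 13 to 7706 bases, with a median of 1046 bases for the members and 1573 bases for all tested clusters. Of the members, 7 were under 300 bases, 40 had 300 to 1000 bases and 53 were longer. The shortest were rank 82 at 13 bases and rank 29 at 47 bases. Such a value is the length by which FPKM divides and need not be the length of the transcript. Rank 82 had the highest mean FPKM of all members, which rests on this small divisor. All lengths given for members here are effective lengths.

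Counts were estimated counts, and 60 members had values that were not whole numbers in 7 to 9 libraries, as when reads are divided between similar clusters. The other 40 members had whole counts in every library, against 22.9% of all tested clusters. Counts that are not whole are called divided counts here, but the counting method is not given, so a division of reads is not known. All 9 members high in white had divided counts, and what part this had in their differences was not tested. All 100 identifiers begin with the same number, as do 99.3% of those of tested clusters, so it does not set the members apart.

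The 10 most abundant members followed several patterns. Rank 1 (7706 bases) had 4203, 7842 and 10767 CPM in blue 1 to 3, 3882, 3314 and 2461 CPM in red 1 to 3 and 19735, 29507 and 29755 CPM in white 1 to 3. It took place 1 in all 3 white libraries, place 4, 1 and 1 in blue and place 14, 19 and 34 in red. The blue and white libraries did not overlap, nor did the red and white ones.

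Rank 5 (273 bases) had 815, 1863 and 2200 CPM in blue, 517, 472 and 515 CPM in red and 6837, 21545 and 18498 CPM in white. Rank 9 (5656 bases) had 24.8, 71.8 and 299 CPM in blue, 25.7, 18.0 and 8.31 CPM in red and 6437, 17805 and 16798 CPM in white. In both, all white libraries were above all others, white 1 was the lowest of the white ones, and blue 1 was the lowest of the blue ones.

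Rank 2 (1761 bases) had 7726, 7731 and 8292 CPM in blue, 10701, 10170 and 10219 CPM in red and 7021, 9295 and 8453 CPM in white. Red was highest in every library, and blue lay within the range of white. In the scaled fit described below, its log2 fold change in red against white was 0.013 (edgeR adjusted p = 0.95). Rank 6 (1600 bases) ran the other way, with 7135, 6986 and 6923 CPM in blue, 5802, 5576 and 5747 CPM in red and 4752, 4878 and 4808 CPM in white. Its blue libraries were all above its red ones, and these above its white ones, in unscaled CPM. In the scaled fit rank 6 was called in no comparison. Its log2 fold change was then -0.06 in red against white (edgeR adjusted p = 0.65) and 0.19 in blue against red (edgeR adjusted p = 0.51).

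Ranks 3, 4, 7, 8 and 10 had their lowest levels in blue. Rank 3 (746 bases) averaged 4420 ± 529 CPM in blue, 10117 ± 302 CPM in red and 10595 ± 1474 CPM in white (SD, n = 3). Rank 4 (1382 bases) averaged 4592 ± 317 CPM in blue, 9230 ± 434 CPM in red and 10333 ± 1168 CPM in white. In both, every blue library was below all others, and the red libraries overlapped the white ones.

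Rank 7 (1482 bases) averaged 2922 ± 99.5 CPM in blue, 7644 ± 192 CPM in red and 4924 ± 513 CPM in white. Rank 8 (820 bases) averaged 2418 ± 56.7 CPM in blue, 4778 ± 100.2 CPM in red and 6689 ± 666 CPM in white. Rank 10 (1021 bases) averaged 1905 ± 78.9 CPM in blue, 5857 ± 53.8 CPM in red and 4692 ± 239 CPM in white. In these 3 members no libraries of different lights overlapped in unscaled CPM, and red was the highest for ranks 7 and 10 and white for rank 8. In the scaled fit, rank 10 had a log2 fold change of 0.02 in red against white (edgeR adjusted p = 0.83).

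**Figure D2:**
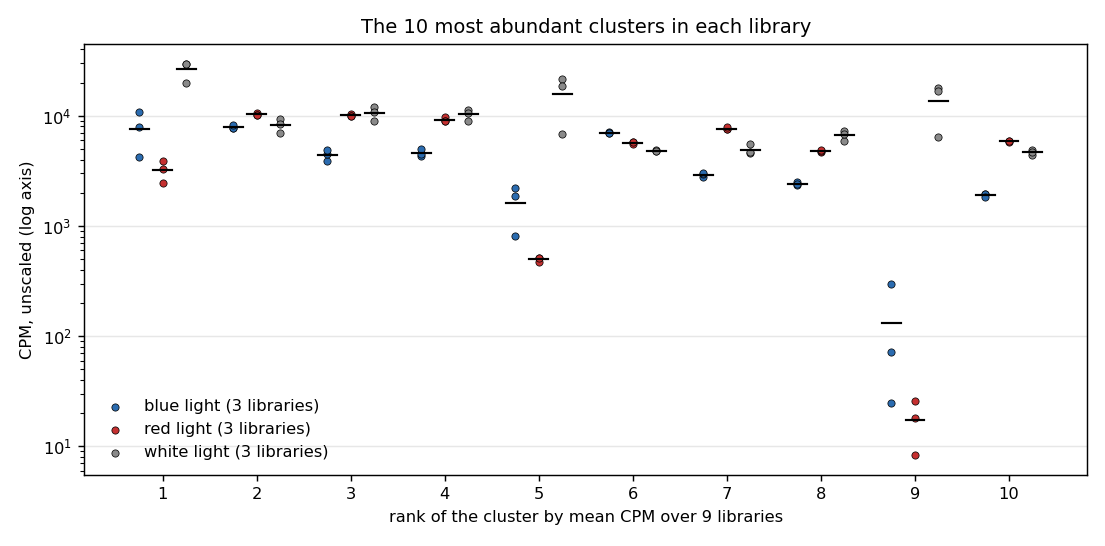
Unscaled CPM (y axis, log scale) of the 10 members of highest mean CPM (x axis) in the 3 blue, 3 red and 3 white libraries (points), with the mean of each light as a line. Ranks 1, 5 and 9 are highest in white, and ranks 3, 4, 7, 8 and 10 are lowest in blue.

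The lights were compared by edgeR's quasi-likelihood test over all 38376 tested clusters, with Benjamini-Hochberg adjusted p under 0.05 as the threshold for a call. The fit scales libraries by TMM, a factor that evens out clusters other than the most extreme ones. The factors were 1.09 to 1.16 in blue, 0.999 to 1.08 in red and 0.788 to 0.936 in white. A fitted log2 fold change is therefore lower than that of the unscaled CPM by 0.31 for red against white, 0.42 for blue against white and 0.11 for blue against red (medians over the members). Levels printed here are unscaled, and fold changes and their standard errors (SE) are from the fit. Both comparisons with white use the same 3 white libraries.

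Under red light, 14 members rose and 23 fell against white light. Over all tested clusters, 17.0% rose and 16.9% fell. Of the 23 that fell, 14 were members that only their white level had brought into the list, so the count of falls is partly fixed by the choice. Of the 14 that rose, 3 would have been below the lowest mean of the list without their red level, which favours a rise. Among the 900 clusters ranked next, 19.4% rose and 33.9% fell, so clusters of the next abundance class fell at a higher share than the members. At least 2-fold changes were rare among members that rose, with 3 against 15.3% of all tested clusters, and numbered 11 among those that fell, against 11.7%. The median log2 fold change was -0.08 over the members, -0.17 over the 900 clusters ranked next and 0.31 over all tested clusters. In a fit of clusters with a mean of at least 10 CPM, the median over all of them was 0.018. A median below that of all tested clusters is thus not particular to the members.

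The direction of these counts depended on the scaling. With library totals alone, 35 members rose and 15 fell, while 21.0% of all tested clusters rose and 11.8% fell. The members' median was then 0.24, against 0.60 for all tested clusters. Relative to the median of all clusters, the members' median was lower, with differences of -0.39 with TMM and -0.36 with library totals. A change of scaling moves all clusters by nearly the same amount, so the similarity of these differences was nearly fixed in advance. White 1 also bore on the count: without it 18 members rose and 46 fell, while 26.2% of all tested clusters rose and 20.6% fell.

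**Figure D3:**
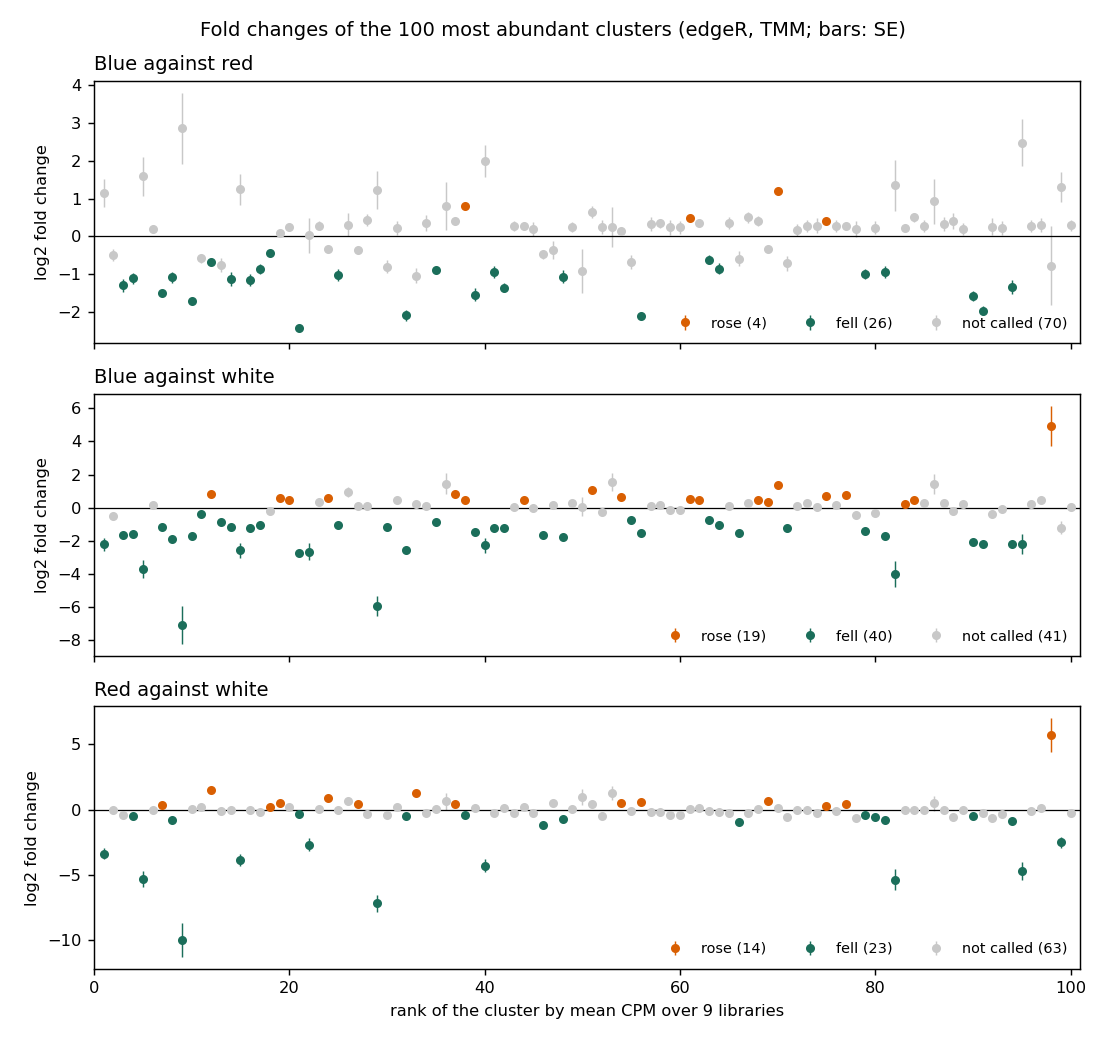
Log2 fold change (y axis) of the 100 members by rank (x axis) in blue against red, blue against white and red against white, from edgeR with TMM scaling, with bars for 1 SE. Colours give the call at an adjusted p under 0.05, with 4 that rose and 26 that fell in blue against red, 19 and 40 in blue against white, and 14 and 23 in red against white.

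The largest rises in red were those of ranks 98, 12 and 33. Rank 98 (4460 bases) had 1564, 1813 and 1653 CPM in blue, 1343, 1420 and 5077 CPM in red and 117, 11.1 and 4.74 CPM in white. All blue and red libraries were above all white ones, and red 3 and white 1 stood apart within their lights. Its log2 fold change in red was 5.72 ± 1.27 (SE). Its mean in white was 44.4 CPM, so its blue and red levels brought it into the list.

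Rank 12 is Cluster-15686.47652 (1265 bases). It had 4112, 4295 and 4201 CPM in blue, 6142, 6115 and 6362 CPM in red and 2189, 1536 and 1698 CPM in white. The libraries of the 3 lights did not overlap. Its fold in red was 2.82 (log2 1.49 ± 0.10, edgeR adjusted p = 3.6e-05). It stood at place 5 by mean in red, 6 in blue and 65 in white.

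Rank 33 (229 bases) averaged 2005 ± 61.9 CPM in blue, 3833 ± 164 CPM in red and 1320 ± 539 CPM in white. Its libraries in red were all above those in white. The log2 fold change in red was 1.27 ± 0.21 (edgeR adjusted p = 0.0034). It had whole counts in all 9 libraries, unlike ranks 12 and 98.

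The largest falls in red were those of ranks 9, 29 and 82, all of the set high in white. Only their white levels brought these 3 into the list, which favours a fall. Rank 9 had a log2 fold change of -9.98 ± 1.28 in red. Rank 29 is Cluster-15686.61953 (47 bases), with 63.1, 169 and 230 CPM in blue, 57.3, 61.6 and 64.9 CPM in red and 3863, 9215 and 7979 CPM in white. All its white libraries were above all others, by more than 10 times. Its log2 fold change in red was -7.17 ± 0.66.

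Rank 82 (13 bases) had 134, 477 and 464 CPM in blue, 99.9, 125 and 165 CPM in red and 1251, 6619 and 4671 CPM in white. Its white libraries lay above all others, and white 1 was far below the other two. Its log2 fold change in red was -5.36 ± 0.81.

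Most members that rose or fell in red made smaller moves. The median log2 fold change of the 14 that rose was 0.50, and that of the 23 that fell was -0.95. Among the 10 highest ranks, 1 rose in red, 5 fell and 4 were not called, where 17.0% of all tested clusters rose and 16.9% fell. Of those that fell, ranks 5 and 9 were brought into the list only by their white level. Rank 7 rose with a log2 fold change of 0.34 ± 0.08 (edgeR adjusted p = 0.0149), which was not called without white 3 (0.073). Rank 4 was lower in red by -0.48 ± 0.15 on the log2 scale (edgeR adjusted p = 0.0417), and this call was lost without blue 1, blue 2, any red library, white 2 or white 3 (0.063 to 0.13). It was also lost with RLE factors (0.059), library totals (0.22), a mean of at least 10 CPM (0.075) and the red and white libraries alone (0.085).

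**Figure D4:**
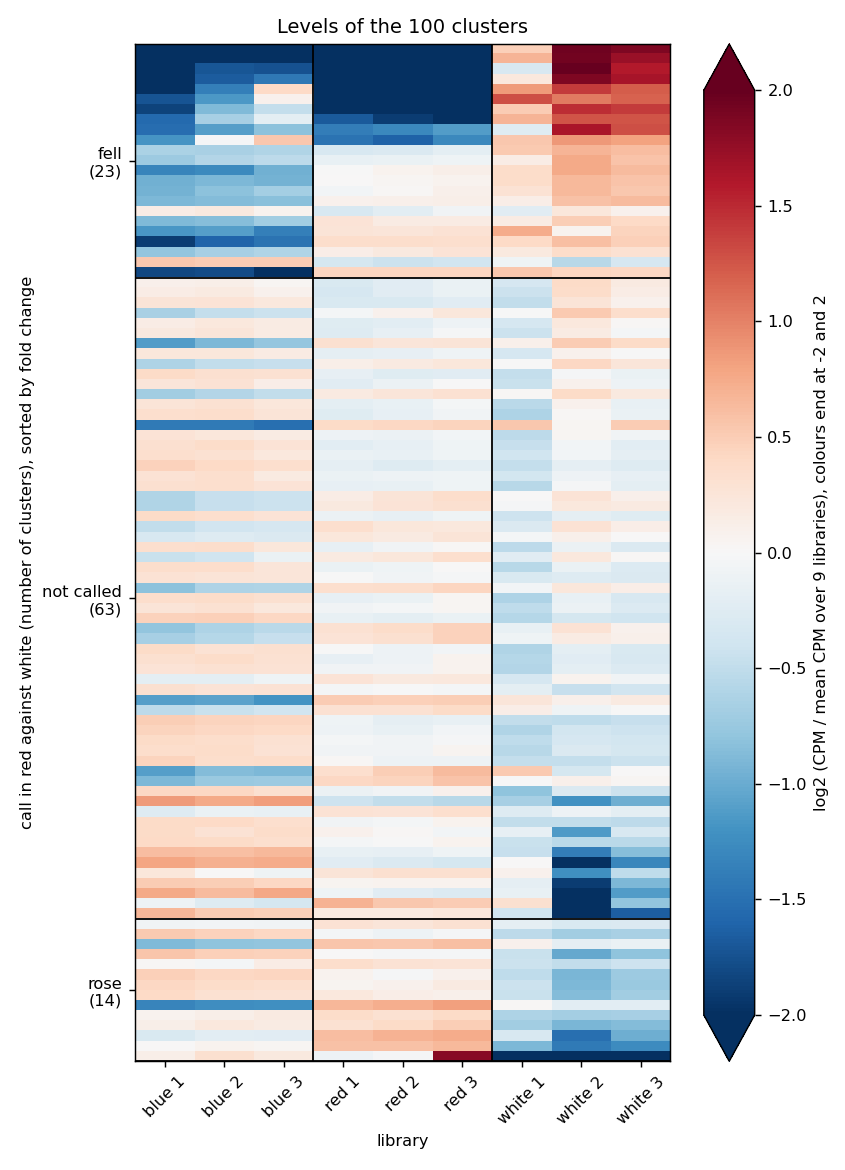
Log2 of the unscaled CPM of each member relative to its mean over the 9 libraries (colour, from -2 to 2), with the members in rows, grouped by the call in red against white and sorted by fold change, and the libraries in columns. The rows at the top are highest (red) in white 2 and white 3, and near the foot of the block not called a few members are lowest (dark blue) in white 2.

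Under blue light, 19 members rose and 40 fell against white light. Over all tested clusters 14.1% rose and 14.7% fell, and of the 40 members that fell, 15 were brought into the list only by their white level. Of the 19 that rose, 8 were brought in only by their blue level. Among the 900 clusters ranked next, 17.8% rose and 39.2% fell, close to the members' shares. Of the members, 3 rose and 35 fell at least 2-fold, against 12.5% and 10.2% of all tested clusters. The median log2 fold change was -0.11 over the members, -0.17 over the 900 clusters ranked next and 0.28 over all clusters. In the fit of clusters with a mean of at least 10 CPM, the median over all of them was 0.036.

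With library totals alone, 43 members rose and 37 fell in blue, while 20.9% of all tested clusters rose and 9.04% fell. The members' median was then 0.32, against 0.67 for all clusters. Relative to all clusters the members' median was again lower, with differences of -0.39 with TMM and -0.34 with library totals. As in red, the similarity of these differences was nearly fixed in advance. Of the 59 calls, 1 had the other direction in unscaled CPM. This was rank 11, with 3413, 3742 and 3707 CPM in blue, 4970, 4962 and 5181 CPM in red and 3402, 3819 and 3586 CPM in white, which was chosen after its values were seen. Its blue and white libraries overlapped.

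The members with the largest rises in blue were ranks 98, 70 and 51. Rank 98 had a log2 fold change of 4.94 ± 1.22. Rank 70 is Cluster-15686.46358 (4208 bases). It had 2949, 2771 and 2938 CPM in blue, 1231, 1169 and 1111 CPM in red and 1035, 707 and 829 CPM in white. Its blue libraries were more than 2 times as high as any other.

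Only its blue level brought rank 70 into the list, and its fold in blue against white was 2.56 (log2 1.36 ± 0.10). Its log2 fold change in red against white was 0.16 ± 0.10 (edgeR adjusted p = 0.22). By mean it stood at place 22 in blue, 129 in red and 193 in white. Rank 51 (2936 bases) averaged 3015 ± 54.8 CPM in blue, 1783 ± 50.0 CPM in red and 1087 ± 337 CPM in white, and rose with a log2 fold change of 1.09 ± 0.16 in blue (edgeR adjusted p = 0.0022).

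The largest falls in blue were those of ranks 9, 29 and 82. The log2 fold change was -7.12 ± 1.14 for rank 9, -5.95 ± 0.62 for rank 29 and -4.01 ± 0.76 for rank 82, with the same limit from the choice as in red. For rank 9 the blue libraries spread from 24.8 to 299 CPM. Both comparisons share the white libraries, so these falls are not independent of those in red.

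Among the 10 highest ranks, 8 fell at least 2-fold in blue in the scaled fit, against 10.2% of all tested clusters. Ranks 2 and 6 were not called. In unscaled CPM, the log2 ratio of rank 7 was -0.75, less than 2-fold. Of those that fell, ranks 5 and 9 were brought into the list only by their white level. Rank 10 fell to 0.306 of its level in white (log2 -1.71 ± 0.08, edgeR adjusted p = 7.5e-06). Rank 3 had a log2 fold change of -1.68 ± 0.18 (edgeR adjusted p = 0.00046), rank 4 one of -1.59 ± 0.15 (edgeR adjusted p = 0.00028) and rank 8 one of -1.89 ± 0.14 (edgeR adjusted p = 6.7e-05). Rank 1 had a log2 fold change of -2.21 ± 0.38 in blue (edgeR adjusted p = 0.0043), and against the same white libraries one of -3.36 ± 0.40 in red (edgeR adjusted p = 0.00083). Rank 5, which only its white level brought into the list, had one of -3.71 ± 0.56 in blue and of -5.31 ± 0.60 in red.

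The members that fell in blue held 6.85% ± 1.00 of the counts in blue, 11.6% ± 0.17 in red and 19.5% ± 3.8 in white. Those that rose in blue held 5.12% ± 0.05 in blue, 4.28% ± 0.28 in red and 2.44% ± 0.23 in white. The 41 members not called in this comparison held 10.4% ± 0.10 in blue, 8.89% ± 0.17 in red and 7.26% ± 0.24 in white. These shares belong to members grouped by their difference and are a description.

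Blue light was then compared with red light directly, where the white libraries enter only through the scaling, the filter and the estimate of the spread. In blue, 4 members were higher and 26 lower than in red. Over all tested clusters the shares were 0.667% higher and 1.02% lower, and among the 900 clusters ranked next they were 3.78% and 10.9%. Of the members, 1 was higher and 17 were lower at least 2-fold, against 0.383% and 0.547% of all tested clusters. The members were thus called more often than all tested clusters and than the next abundance class. Of the 4 that were higher, 3 were brought into the list only by their blue level, and of the 26 lower, 4 only by their red level. These clusters also have the most counts, and the part of depth in these shares was not tested.

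The median log2 difference of all members was 0.22, on the other side of 0 from most calls, and 59 of the 100 members were higher in blue. The calls lower in blue were large, with a median of -1.12, while the differences of the 70 members not called had a median of 0.26. With library totals alone, 14 members were higher and 28 lower in blue, against 1.42% and 1.02% of all tested clusters.

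The 30 calls of the TMM-scaled fit changed in number when 1 library was left out. Their number was 13, 11 and 18 without blue 1, 2 and 3, and 13, 11 and 11 without red 1, 2 and 3. It was 46, 36 and 18 without white 1, 2 and 3. Over all tested clusters the share called moved likewise, to 0.288% to 0.471% without a blue or red library. This share was 3.22%, 3.19% and 0.554% without white 1, 2 and 3. A fit of the blue and red libraries alone, which leaves out the spread of the white ones, called 34 members higher and 36 lower in blue, and 5.81% and 5.24% of all clusters tested in it.

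The members lower in blue than in red held 4.72% ± 0.23 of the counts in blue, 10.0% ± 0.21 in red and 9.06% ± 0.35 in white. The blue libraries held 4.47% to 4.91%, where red held 9.92% to 10.3% and white 8.68% to 9.37%. That every blue library lay below all red ones follows from grouping the members by this difference. Their effective lengths lay between 211 and 1571 bases, and 23 of the 26 had divided counts. The 4 members higher in blue held 1.07% ± 0.02 in blue, 0.603% ± 0.02 in red and 0.498% ± 0.05 in white. The shares of both groups are a description.

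Of the members lower in blue, rank 21 differed most. It is Cluster-15686.48549 (1068 bases), with 818, 829 and 685 CPM in blue, 3895, 3893 and 3883 CPM in red and 4192, 3883 and 3836 CPM in white. All blue libraries were below all others by more than 4 times, and red and white overlapped. Its log2 difference from red was -2.44 ± 0.09 (edgeR adjusted p = 0.00014). By mean it stood at place 201 in blue, 13 in red and 16 in white.

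Rank 56 (938 bases) had 735, 773 and 780 CPM in blue, 2891, 3021 and 3216 CPM in red and 1859, 1569 and 1584 CPM in white. The 3 lights did not overlap, with red highest and blue lowest. Only its red level brought it into the list, and its log2 difference in blue against red was -2.11 ± 0.09. Against white its log2 fold change was -1.54 ± 0.09 in blue (edgeR adjusted p = 2.5e-05) and 0.57 ± 0.09 in red.

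Rank 32 (278 bases) had 639, 784 and 863 CPM in blue, 3053, 3033 and 3020 CPM in red and 3167, 3617 and 3332 CPM in white. Blue was below red and white in every library. Its log2 difference in blue against red was -2.10 ± 0.16 (edgeR adjusted p = 0.0016).

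Of the highest ranks, ranks 3, 4, 7, 8 and 10 were lower in blue than in red. Rank 10 had a log2 difference of -1.73 ± 0.08 (edgeR adjusted p = 0.00019) and rank 7 one of -1.50 ± 0.08 (edgeR adjusted p = 0.00036). Rank 3 had one of -1.30 ± 0.18 (edgeR adjusted p = 0.0145), which was lost without blue 1, blue 2 or any red library (0.069 to 0.092). Rank 4 had one of -1.11 ± 0.15 (edgeR adjusted p = 0.0144), lost without the same libraries (0.067 to 0.092). Rank 8 had one of -1.09 ± 0.13 (edgeR adjusted p = 0.0104), lost without any blue library, red 2 or red 3 (0.0502 to 0.070). Rank 12 was lower in blue too, by -0.67 ± 0.09 (edgeR adjusted p = 0.0152), and this was lost without any blue or red library or white 3 (0.066 to 0.11) and with library totals alone (0.060).

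The members with the largest rises in blue against red were ranks 70, 38 and 61, followed by rank 75 as the other one called. Rank 70 had a fold of 2.29 in blue against red (log2 1.19 ± 0.10), with the limit from its choice named above. Rank 38 (1922 bases) had 3303, 3239 and 3243 CPM in blue, 1779, 1692 and 1746 CPM in red and 2150, 1558 and 1798 CPM in white. Its blue libraries were above all others, and red and white overlapped. Its log2 difference was 0.80 ± 0.09 (edgeR adjusted p = 0.0058), which missed the threshold without red 2 (0.052).

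Rank 61 (567 bases) had 2468, 2386 and 2359 CPM in blue, 1651, 1550 and 1573 CPM in red and 1247, 1232 and 1278 CPM in white. The 3 lights did not overlap in unscaled CPM, but its fitted log2 fold change in red against white was 0.04 ± 0.09 (edgeR adjusted p = 0.72). Its log2 difference in blue against red was 0.49 ± 0.09, and only its blue level brought it into the list. The call was lost without any blue or red library or white 3, and with RLE factors.

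Of the set high in white, 0 members were called in blue against red by edgeR, 7 had an unadjusted p under 0.05, and DESeq2 called 3. Its log2 differences ran from 0.03 to 2.86, with a median of 1.35. Within blue these 9 members varied widely, with coefficients of variation of 23.8% to 111% and a median of 54.3%, against a median of 3.55% for the other 91. In red the medians were 9.39% for the set and 3.93% for the others, and in white 39.9% and 14.0%. The blue libraries thus differed in this set far more than in the other members.

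Differences between libraries of a light went along with the length of the members, and the ratios were widest in white. Of the 18 members over 2000 bases, 14 were lower in white 2 than in white 1, with a median log2 ratio of -0.56, and of the 7 under 300 bases, 5 were higher, with a median of 1.25. The 75 in between had a median of 0.33. Over the 100 members, which share their libraries, Spearman's rho between the ratio and the length was -0.46 for white 2 over white 1, -0.44 for white 3 over white 1 and 0.49 for white 3 over white 2, given as a description. In blue it was -0.30, -0.09 and 0.16 for 2 over 1, 3 over 1 and 3 over 2, and in red -0.40, -0.51 and -0.52. The same ratio for red 2 over red 1 had medians of -0.07, 0.09 and 0.02 for long, short and middle members, and for blue 2 over blue 1 of -0.07, 0.42 and 0.04. For red 3 over red 1 they were -0.12, 0.18 and 0.09.

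Ranks 36, 50, 53 and 86, named here after their values were seen, show the size of this difference. Rank 36 (7103 bases) had 3981, 3658 and 4053 CPM in blue, 2240, 2024 and 1950 CPM in red and 2135, 172 and 1089 CPM in white. Rank 50 (4938 bases) had 1868, 1670 and 1565 CPM in blue, 3254, 2922 and 2843 CPM in red and 2492, 261 and 1155 CPM in white. Each of the 4 was lowest in white 2 and highest of the white libraries in white 1, and none was called against white in red or blue. Ranks 1, 9, 15 and 62 are also over 2000 bases and were higher in white 2 than in white 1.

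**Figure D5:**
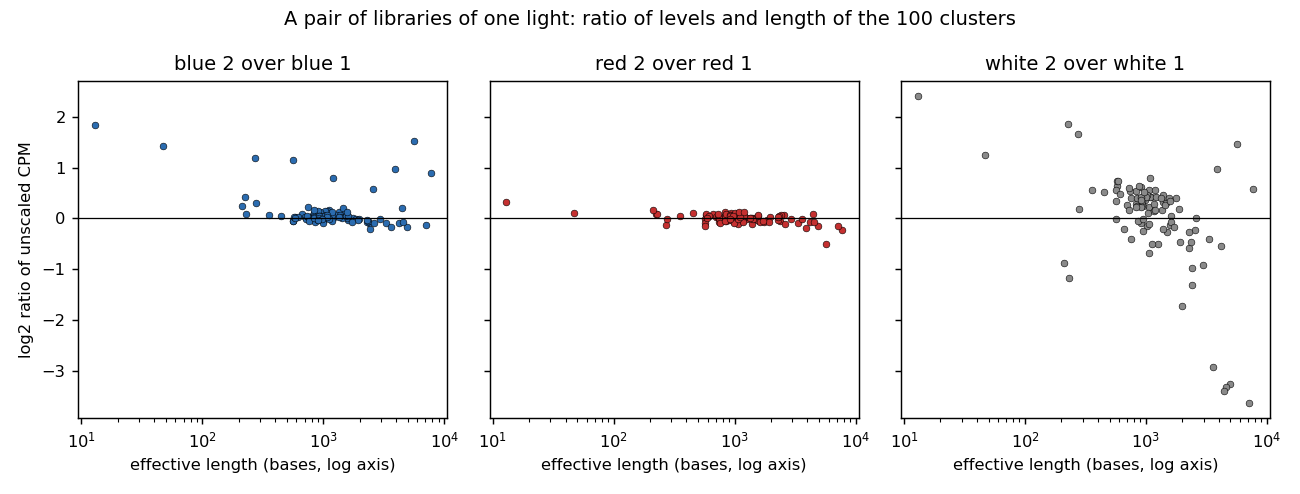
Log2 ratio of unscaled CPM between a pair of libraries of one light (y axis) against the effective length of the 100 members (x axis, log scale), for blue 2 over blue 1, red 2 over red 1 and white 2 over white 1. Ratios in red lie closest to 0, and in white they reach 2.40 among the short members and -3.63 among the long ones.

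Short members carried part of the difference in share, and ranks 5, 22, 29 and 82 among them belong to the set high in white. Of the other short members, rank 32 had its highest mean in white and ranks 33 and 39 in red. The 7 under 300 bases held 0.738% ± 0.16 of the counts in blue, 1.19% ± 0.06 in red and 4.00% ± 1.5 in white. Of these 7, 5 fell and 1 rose under red light against white, where 16.9% of all tested clusters fell and 17.0% rose. Under blue light against white 6 fell, where 14.7% of all tested clusters did. Ranks 5, 22, 29 and 82 fell in both comparisons. Only their white level brought them into the list, which favours a fall. Members of 300 to 1000 bases held 8.25% ± 0.12 in blue, 8.52% ± 0.29 in red and 8.21% ± 0.96 in white, which overlap between all lights. Those over 1000 bases held 13.3% ± 0.60 in blue, 15.1% ± 0.32 in red and 17.0% ± 1.3 in white. They include ranks 1, 9, 15, 40 and 95 of the set high in white. The shares by length therefore partly repeat those of that set. What part the length, and with it the state of the RNA or of the library, had in the differences from white was not tested.

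The calls were split by whole and divided counts as follows. Of the 40 members with whole counts, 4 rose and 4 fell in red, in blue against white 7 rose and 10 fell, and in blue against red 1 was higher and 3 were lower. They held 9.03% ± 0.10 of the counts in blue, 9.04% ± 0.29 in red and 7.71% ± 0.84 in white. Of the 60 with divided counts, 10 rose and 19 fell in red, and 12 rose and 30 fell in blue against white. In blue against red, 3 of them were higher and 23 lower. Over all tested clusters, 17.0% rose and 16.9% fell in red, and 14.1% rose and 14.7% fell in blue against white. In blue against red, 0.667% of all tested clusters were higher and 1.02% lower. These shares were not computed for whole and divided counts apart, so the kinds are not compared.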

How the data were processed

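Each of the 9 libraries has 1 table of 115975 clusters, giving counts and FPKM. The deposited counts are estimated counts per cluster and not scaled, per the file headers and the values, of which 21.6% to 33.9% per library are not whole. The deposited FPKM values are the authors' counts scaled by length and library total, and were used only for effective lengths (libraries with at least 50 counts) and for 1 alternative list. The submitters' processing notes name DESeq 1.10.1, and the aligner, counter and assembly are not given in the sources used here. Libraries were made from total RNA with the NEBNext Ultra RNA kit, per the labels.

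Estimated counts were rounded and fitted with edgeR 4.0.16 (R 4.3.3; filterByExpr with minimum counts of 10 and, summed, 15, TMM, glmQLFit with robust spread, glmQLFTest) over all 9 libraries, with light as the only term. The tested clusters held 99.0% to 99.4% of the counts. P-values were adjusted by Benjamini-Hochberg over 38376 clusters. SE is the log2 fold change divided by the square root of its F statistic. The code was tested on simulated data. No libraries of a light were identical, and their counts differed beyond sampling noise. DESeq2 1.42.0 and limma 3.58.1 served as alternatives.

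The members and lists were chosen with earlier results of these data known. Described one by one were ranks 1 to 10 and, per comparison, the 3 largest increases and decreases among called members without overlap between libraries. Identifiers were printed for the largest increase and decrease for red against white, then for blue against red, among those with at least 10 CPM in every library. Calls were not counted jointly over both comparisons with white, which share libraries, although this had been planned.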

Additional observations from a re-analysis of the deposited data

How the results depend on the processing

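Calls among the 100 members numbered 37 for red against white, 59 for blue against white and 30 in blue against red, and they stayed within 1.5 times of this with RLE factors, library totals, TMM factors computed without the members, DESeq2, limma-voom, no filter, a mean of at least 10 CPM and lists by median CPM, lowest CPM or FPKM. An adjusted p under 0.01 gave 22 for red against white and 12 for blue against red, and a 2-fold minimum gave 14, 38 and 18, since these are stricter. In blue against red, a fit of the 2 lights alone gave 70 and limma-voom with a weight per light 57. Without 1 library the counts ran from 25 to 64 for red against white, 52 to 75 for blue against white and 11 to 46 for blue against red, the highest in each case without white 1. The median log2 fold change of the members turned from -0.08 to 0.24 for red against white and from -0.11 to 0.32 for blue against white with library totals alone, and without 1 library the second median ran from -0.25 to 0.014, above 0 without white 2. The list by mean FPKM held 16.5% of the counts in blue, 20.5% in red and 21.4% in white, and the list by median CPM held 22.4% in blue, 25.6% in red and 26.1% in white, so that red and white lay closer than in the main list. Of the values of members named by rule under all alternatives, 1234 kept their direction and their side of the threshold, 97 lost a call, 40 gained one and 12 changed sign, none of them a call to start with. In red against white, rank 6 turned from -0.06 to 0.25 with library totals, where it was called (edgeR adjusted p = 0.0085), and to 0.049 with a mean of at least 10 CPM. Rank 2 (0.013) turned to -0.027 with RLE factors and DESeq2, and without 1 library ran from -0.16 (white 1) to 0.14, with -0.0029 without red 3. Rank 10 (0.021) turned to -0.0088 with RLE factors and DESeq2, and without 1 library ran from -0.021 (white 1) to 0.061, with -0.0089 without red 3. Rank 61 (0.043) ran from -0.035 (without white 1) to 0.094. In blue against red, rank 98 (-0.78) ran from -1.11 to 0.23 (without red 3). Except where stated, the cause was not tested.

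The labels do not say that the replicate numbers pair the samples. Over all tested clusters, deviations of libraries with the same number had correlations of 0.0053 to 0.066, all positive. Those of libraries with different numbers ran from -0.066 to 0.040. These values weigh all tested clusters alike, also those with few counts, so they cannot tell whether samples were paired. With the replicate number as a block, 33, 58 and 20 members were called in the comparisons of red with white, blue with white and blue with red. The block put the edgeR adjusted p of rank 4 at 0.069 for red against white and 0.056 for blue against red, and that of rank 12 at 0.058 for blue against red. Every member had at least 77 counts in each library.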
